A study of Mus musculus with 10 samples.

Results

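The loops described here came from bone marrow-derived macrophages (BMDMs) polarized in opposite directions: the M2[IL-4] list, from cells kept in IL-4 for 24 h, and the IFNG list, from cells given interferon gamma for 3 h. A loop is a pair of 10 kb bins of 1 chromosome that the submitters listed as interacting in Hi-C. Hi-C is an assay that ligates and sequences DNA ends that lie close together in the nucleus. The contacts of a loop are taken here as the reads joining its 2 bins. All loops of both lists were taken, 58260 for M2[IL-4] and 55012 for IFNG, which make 113272 of the 301424 loops of the 5 lists in the series. The other 3 lists are M0[CTR] (untreated, 53424 loops), M2p[pIL-4] (24 h of IL-4, washout and 24 h of rest, 67728 loops) and pIL-4 + IFNG (the primed cells given IFNG for 3 h, 67000 loops). The cells came from the bone marrow of wild-type female C57BL/6 mice aged 2-3 months and were differentiated with M-CSF at 20 ng/ml, which the medium of every group contained, and treatment began on day 6. Both cytokines were used at 20 ng/ml. Each group had 2 replicates that had been merged into 1 list, so no difference between the lists has a replicate check, and the cytokine cannot be told apart from its duration (24 h against 3 h) or from the library. A loop missing from a list was not called there, which is not the same as no contact. In these bulk libraries, fewer cells with a contact and fewer contacts per cell cannot be told apart.

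IL-4 binds a receptor containing IL4RA and activates the transcription factor STAT6, which turns on the genes of alternative (M2) activation, such as the arginase gene Arg1. IFNG binds the IFNGR1 and IFNGR2 receptor and activates JAK kinases and STAT transcription factors, which induce interferon regulatory factors, guanylate-binding proteins, chemokines and antigen presentation genes of classical (M1) activation. Each cytokine is known to dampen parts of the other's program in macrophages. Loops bring enhancers, promoters and sites bound by CTCF, a factor that helps to anchor loops, close to each other.

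The sequences shown first are CTCF core matches at loop anchors. The loops are the strongest found in 1 list only within 100 kb of F10, Ccl17 and the Cd274, Pdcd1lg2 and Jak2 cluster. The loop near Ccl17 joined a bin in Dok4 and Polr2c to a bin in Ccdc102a, and neither anchor lay at Ccl17. The right anchor of the loop near Cd274 lay in Plgrkt. Each is 1 of several loops there, and the loop numbers near Cd274 and Ccl17 did not differ by 2-fold. The capitals mark the CTCF core, a 12-base pattern searched on both strands, shown with 4 bases on each side and read along the strand of the match (GRCm38).
F10 locus, loop of M2[IL-4] only, anchor in Pcid2, chr8:13093311-13093322, minus strand: gcagCCACCAGAGGGCaatt
F10 locus, loop of IFNG only, chr8:13214108-13214119, minus strand: ggcgCCACCAGGGGGCactg
Cd274, Pdcd1lg2 and Jak2 cluster, loop of IFNG only, left anchor, chr19:28975522-28975533, plus strand: ctgcCCAGCAGGGGGCggcc
Cd274, Pdcd1lg2 and Jak2 cluster, loop of IFNG only, right anchor, chr19:29355056-29355067, minus strand: agtgCCACTAGATGGCacac
Ccl17 locus, loop of IFNG only, left anchor, chr8:94874492-94874503, plus strand: gcgaCCAGCAGGGGGCgctt
Ccl17 locus, loop of IFNG only, right anchor, chr8:94909045-94909056, minus strand: atgtCCACCAGGGGGCgcag
The loops near Cd274 and Ccl17 held a core on the plus strand at the left anchor and a core on the minus strand at the right anchor, so the cores faced each other. One other such loop had cores at both anchors, that of IFNG only near Ccl24, and both of its cores were on the plus strand. The core was found in 4.57% of all 10 kb bins of the assembly. A match describes letters and does not show binding.

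The second set of sequences is the 250 bases before the RefSeq start site of genes with an interferon or STAT pattern. Gbp2b, Gbp3, Gbp7, Ifit3 and Isg15 had at least 2-fold more loops nearby in IFNG. The loop numbers near Cxcl10 and Ccl17 did not differ by 2-fold. The capitals mark the interferon element GAAANNGAAA, which begins with TTTC when it lies on the other strand, the STAT element TTCNNNGAA and the STAT element with the wider spacing, TTCNNNNGAA, all searched on both strands (RefSeq, GRCm38.p6, each shown 5′ to 3′ along the gene's strand).
Gbp2b, chr3:142594597-142594846, plus strand: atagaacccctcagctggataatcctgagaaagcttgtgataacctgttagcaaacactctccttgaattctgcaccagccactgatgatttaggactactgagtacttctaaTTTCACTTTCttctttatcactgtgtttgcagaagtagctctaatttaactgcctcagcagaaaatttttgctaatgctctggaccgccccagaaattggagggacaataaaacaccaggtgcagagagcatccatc
Gbp3, chr3:142559794-142560043, plus strand: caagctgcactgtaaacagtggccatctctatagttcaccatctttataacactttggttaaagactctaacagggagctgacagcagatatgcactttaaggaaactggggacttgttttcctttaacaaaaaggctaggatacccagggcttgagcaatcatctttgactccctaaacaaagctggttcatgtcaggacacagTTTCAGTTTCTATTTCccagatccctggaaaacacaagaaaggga
Gbp7, chr3:142530086-142530335, plus strand: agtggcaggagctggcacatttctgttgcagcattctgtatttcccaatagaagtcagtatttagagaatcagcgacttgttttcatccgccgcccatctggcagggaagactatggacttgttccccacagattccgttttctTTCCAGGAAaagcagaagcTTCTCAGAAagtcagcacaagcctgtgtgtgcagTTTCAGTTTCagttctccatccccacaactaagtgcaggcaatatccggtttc
Ifit3, chr19:34583279-34583528, plus strand: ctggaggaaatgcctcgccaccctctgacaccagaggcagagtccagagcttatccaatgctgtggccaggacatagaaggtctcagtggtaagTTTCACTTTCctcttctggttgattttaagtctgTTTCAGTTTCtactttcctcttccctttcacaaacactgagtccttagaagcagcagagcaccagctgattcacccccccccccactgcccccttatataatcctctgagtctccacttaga
Isg15, chr4:156200819-156201068, minus strand: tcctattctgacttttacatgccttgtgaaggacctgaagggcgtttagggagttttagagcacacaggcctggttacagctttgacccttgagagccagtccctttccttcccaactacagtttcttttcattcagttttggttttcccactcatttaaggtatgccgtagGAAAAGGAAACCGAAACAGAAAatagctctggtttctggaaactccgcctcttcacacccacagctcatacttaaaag
Cxcl10, chr5:92348890-92349139, minus strand: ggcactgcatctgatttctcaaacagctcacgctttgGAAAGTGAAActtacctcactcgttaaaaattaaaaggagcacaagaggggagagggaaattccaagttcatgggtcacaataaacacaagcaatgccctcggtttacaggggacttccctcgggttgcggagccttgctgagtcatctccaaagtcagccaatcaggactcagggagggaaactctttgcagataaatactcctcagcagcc
Ccl17, chr8:94810203-94810452, plus strand: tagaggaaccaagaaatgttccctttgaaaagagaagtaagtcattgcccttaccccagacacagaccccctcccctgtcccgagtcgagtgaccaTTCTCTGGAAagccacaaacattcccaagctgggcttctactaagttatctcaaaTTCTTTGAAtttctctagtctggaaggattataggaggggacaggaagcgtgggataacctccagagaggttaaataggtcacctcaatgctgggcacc
Gbp3 held 2 interferon elements that overlap, Ifit3 held 2 that do not, and Ccl17, an IL-4-induced chemokine gene, held 1 STAT element of each spacing and no interferon element. No comparison of loops was drawn from a single match.

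Most loops were present in both lists. Counting loops whose anchors both lay within 25 kb, 50027 of the 58260 M2[IL-4] loops (85.9%, 95% Wilson interval 85.6-86.1) had a counterpart in the IFNG list, and 48331 of the 55012 IFNG loops (87.9%, 87.6-88.1) had one in the M2[IL-4] list. That left 8233 loops of M2[IL-4] only and 6681 of IFNG only. Loops with many contacts for their span were matched more often than loops with few. Of the weakest 10% of loops for their span, 76.1% of M2[IL-4] and 77.2% of IFNG loops had a counterpart, and of the strongest 10% it was 97.8% and 98.6%. In identical bins the share was 44.1% of the M2[IL-4] list and 46.7% of the IFNG list. The intervals cover counting error only, since reads and neighbouring bin pairs are not independent.

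Loops of 1 list only were longer and had fewer contacts than matched loops, in both directions. The median span was 220 kb for M2[IL-4] only and 290 kb for IFNG only, against 160 and 170 kb for the matched loops of each list. The median contacts were 24 and 21, against 33 in both matched sets. The M2[IL-4]-only set held relatively more loops between adjacent bins, 11.0% (10.4-11.7) against 6.62% (6.04-7.24) of the IFNG-only set, while the IFNG-only set held more loops of 500 kb or longer, 29.9% (28.8-31.0) against 23.8% (22.9-24.7). A start site lay at an anchor of 23.6% of M2[IL-4]-only loops and 22.3% of IFNG-only loops, below the 30.2% and 30.1% of matched loops. A CTCF core lay at an anchor of 20.4% and 19.9%, against 27.8% and 28.1% of matched loops. Cores facing each other were found at 0.996% (0.803-1.23) of M2[IL-4]-only and 0.868% (0.672-1.12) of IFNG-only loops, and at 1.46% and 1.57% of matched loops. The 2 sets thus differed from each other in length more than in promoters and CTCF cores.

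The other lists showed where the loops of 1 list only recurred. A counterpart in untreated cells was found for 38.5% (37.4-39.5) of M2[IL-4]-only loops and for 2338 of the 6681 IFNG-only loops (33.9-36.1%), against 94.3% and 94.2% of matched loops. In the primed M2p[pIL-4] list it was 49.5% (48.4-50.5) of M2[IL-4]-only and 42.1% (41.0-43.3) of IFNG-only loops. In the pIL-4 + IFNG list the order turned, with 44.8% (43.7-45.9) of M2[IL-4]-only and 47.9% (46.7-49.1) of IFNG-only loops. The M2p[pIL-4] and pIL-4 + IFNG lists are longer than the others, which raises the chance of a counterpart for both sets.

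**Figure D1:**
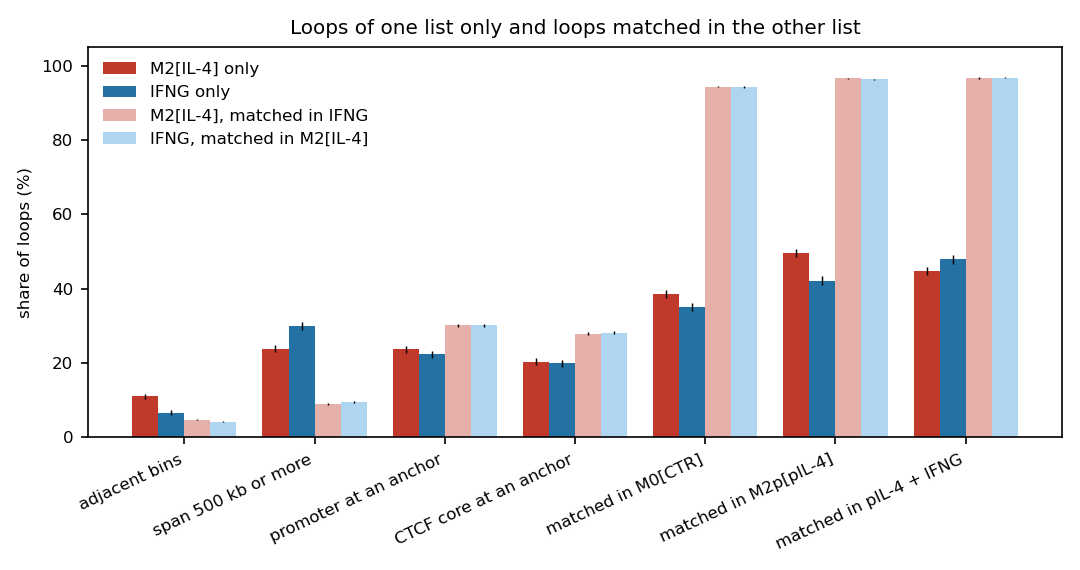
Share of loops (%) with each feature in 4 sets: loops of M2[IL-4] only (n = 8233), loops of IFNG only (n = 6681) and the loops of each list matched within 25 kb in the other. Bars are shares and lines are 95% Wilson intervals for counting error. Loops of IFNG only are more often 500 kb or longer, and both sets of 1 list only lie far below the matched sets in the share found in the other 3 lists.

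To compare genes, loops with an anchor within 100 kb of the transcription start site (TSS; GENCODE M21) were counted, scaled by list length, and compared as the log2 of the M2[IL-4] number over the IFNG number with 1 added to each. Of 21728 genes, 12032 had at least 10 loops in both lists together and were tested. A 2-fold difference was the threshold, and no p-value was given because each group had 1 list. Loop numbers below are as listed, before scaling, and the M2p[pIL-4] and pIL-4 + IFNG lists are the longest. M2[IL-4] had at least 2-fold more loops at 393 genes (3.27% of genes tested) in 156 loci, and IFNG at 437 genes (3.63%) in 166 loci. A locus is a called gene, or a chain of called genes with neighbouring start sites within 200 kb. The median log2 ratio over genes tested was -0.01, and 5% of genes lay below -0.88 and 5% above 0.83. The calls depended on how adjacent bin pairs were counted and on the window: with touching bin pairs merged into 1 loop, 76 of the 393 and 88 of the 437 genes were called again, and with a window of 50 kb 190 and 193 were. The called genes had few loops: the M2[IL-4]-higher genes had a median of 16 in M2[IL-4] and 5 in IFNG, with M0[CTR] at 9, M2p[pIL-4] at 15 and pIL-4 + IFNG at 12, and the IFNG-higher genes had 5, 13, 9, 10 and 14 in the same order. The bin of the TSS itself carried a loop at 229 of the 393 M2[IL-4]-higher genes in the M2[IL-4] list and at 109 in the IFNG list. For the 437 IFNG-higher genes it was 117 and 233. This bin lies inside the window used for the call, so the direction of these numbers is partly set by the call. The share over all genes tested is not given here, and no result about promoters is drawn.

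Among the genes of the IL-4 receptor and its signalling, none of 7 tested reached 2-fold in either direction (median log2 ratio -0.11). Stat6, the main transcription factor of the IL-4 response, had 54 loops in M2[IL-4] and 49 in IFNG, with M0[CTR] at 46, M2p[pIL-4] at 55 and pIL-4 + IFNG at 52, a log2 ratio of 0.06. Il4ra, the receptor subunit, had 27 loops in M2[IL-4] and 36 in IFNG, a ratio of -0.48 that became 0.12 with touching bin pairs merged.

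The transcription factors of the IL-4 response had more loops in M2[IL-4] than in IFNG at 6 of 9 genes, and none reached 2-fold (median log2 ratio 0.43, against -0.01 over all genes tested). Batf3, a basic leucine zipper factor, had 59, 29, 49, 65 and 44 loops in M2[IL-4], IFNG, M0[CTR], M2p[pIL-4] and pIL-4 + IFNG, the IFNG list being the lowest of the 5 (log2 ratio 0.92). Irf4, an interferon regulatory factor induced by IL-4 and needed for parts of the M2 program, had 21, 11, 17, 26 and 11 loops in the same order, with both IFNG-treated lists lowest (0.80). Egr2, a zinc finger factor of late IL-4 responses, had 81, 48, 48, 64 and 77 loops (0.66). The 81 and 77 loops were the highest for Egr2, and IFNG alone equalled M0[CTR]. Myc, a growth regulator, had 52 loops in M2[IL-4] and 34 in IFNG (0.52), and Bhlhe40, a helix-loop-helix factor, had 53 and 37 (0.43). Klf4, which cooperates with STAT6, had 116 in M2[IL-4] and 92 in IFNG, against 66 in M0[CTR] (0.25, and -0.15 with touching bin pairs merged). Pparg, a lipid-sensing nuclear receptor, had 25 and 27 (-0.19), Cebpb 96 and 92 (-0.02), and Kdm6b, a histone demethylase, 63 and 72 (-0.27).

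At Egr2 (chr10:67535475-67542188), 21 of the 81 M2[IL-4] loops had no IFNG counterpart within 25 kb, while 3 of the 48 IFNG loops had none in M2[IL-4]. The strongest loop of M2[IL-4] only joined chr10:67610001-67620000 to the next bin, downstream of the gene, with 233 contacts (95% Poisson interval 204.0-264.9), and it was listed also in M2p[pIL-4] (221 contacts) and pIL-4 + IFNG (216 contacts). It was not listed in M0[CTR] or IFNG. The TSS bin of Egr2 had 11 loops in both lists, so the difference lay away from the promoter.

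The alternative activation markers gave 4 of 23 genes with at least 2-fold more loops in M2[IL-4] and 0 in IFNG, with a median log2 ratio of 0.13 and 17 genes above 0. The share of all genes tested called in that direction was 3.27%. F7 and F10, the genes of coagulation factors VII and X, led the list and share 1 neighbourhood. F7 had 48 loops in M2[IL-4] and 3 in IFNG, with M0[CTR] at 9, M2p[pIL-4] at 33 and pIL-4 + IFNG at 18 (log2 ratio 3.54). F10 had 48, 4, 9, 35 and 18 in the same order (3.22). IFNG was the lowest and M2[IL-4] the highest of the 5 lists at both genes. Without the added 1, the scaled log2 ratio was 3.92 for F7 (exact counting interval 2.28-6.24) and 3.50 for F10 (2.05-5.44). Fn1, the fibronectin gene, had 18, 5, 4, 17 and 14 loops (1.59), with M0[CTR] and IFNG low. Slc7a2, an arginine transporter gene, had 12, 4, 4, 4 and 5 (1.31), and here M2[IL-4] alone stood above the others. The study had named F7, F10, Arg1, Klf4 and Itgax from the same IL-4 libraries, and had chosen Slc7a2 partly for its Hi-C loops there. The place of these genes on the IL-4 lists is therefore not independent evidence of direction.

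Other M2 genes did not reach 2-fold. Arg1 had 30 loops in M2[IL-4] and 15 in IFNG, with M0[CTR] at 11, M2p[pIL-4] at 16 and pIL-4 + IFNG at 24 (log2 ratio 0.88). At Arg1, 1 of the 30 M2[IL-4] loops and 0 of the 15 IFNG loops lacked a counterpart within 25 kb, so the larger number came from additional bin pairs beside shared ones. Itgax, an integrin gene, had 61, 41, 41, 58 and 45 loops (0.48), with IFNG at the level of M0[CTR]. Mrc1, the mannose receptor gene, had 14 in M2[IL-4] and 13 in IFNG (0.02). Several genes induced by IL-4 leaned the other way: Ch25h, a cholesterol hydroxylase gene, had 24 and 46 (-0.99), the chemokine genes Ccl17 and Ccl22 had 7 and 12 (-0.77) and 9 and 13 (-0.56), and Pdcd1lg2, encoding PD-L2, had 34 and 47 (-0.54, and 0.02 with touching bin pairs merged). Retnla had no loop in any list and Chil3 1 loop at most, so neither was tested.

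**Figure D2:**
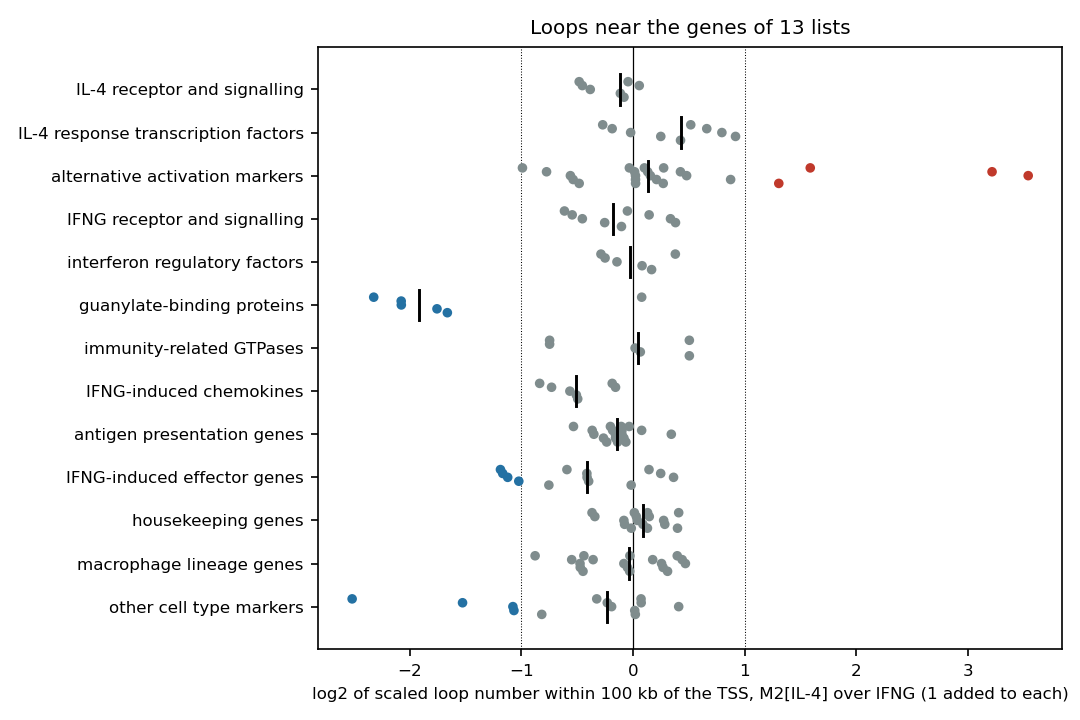
Log2 of the scaled loop number within 100 kb of the TSS, M2[IL-4] over IFNG with 1 added to each, for genes tested in 13 lists, with 2 genes that are not reported here left out of the points. Points are genes, vertical bars are list medians over all genes tested, dotted lines mark 2-fold, red points are genes with at least 2-fold more loops in M2[IL-4] and blue points those with at least 2-fold more in IFNG. F7 and F10 lie at 3.54 and 3.22, and 5 guanylate-binding protein genes lie between -2.32 and -1.66.

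The F7 and F10 neighbourhood (F7 chr8:13026034-13035809, F10 chr8:13037308-13056676) held a dense block of loops seen in M2[IL-4] and not in IFNG. Of the 48 M2[IL-4] loops within 100 kb of the F10 TSS, 39 had both anchors inside the window, 31 had no IFNG counterpart, and contacts ranged from 20 to 151. The 4 IFNG loops had 31 to 48 contacts. A loop joined the F7 TSS bin to the F10 TSS bin with 138 contacts, another lay inside F10 with 151 contacts, and another joined the F7 TSS bin to a bin at the start sites of Cul4a, a ubiquitin ligase scaffold, and Pcid2 with 52 contacts. These 3 bin pairs were listed in M2[IL-4] and in no other list. Within 25 kb, the loop inside F10 had no counterpart in any other list, the loop between the start sites of F7 and F10 had one in M2p[pIL-4] (59 contacts), and the loop to Cul4a and Pcid2 had one in each list but IFNG. The strongest for its span joined Mcf2l, chr8:13000001-13010000, to Pcid2, chr8:13090001-13100000, with 71 contacts (55.5-89.6), and it was listed with 52 contacts in M2p[pIL-4] and had counterparts within 25 kb in M0[CTR] (45 contacts) and pIL-4 + IFNG (51 contacts). Its Pcid2 anchor holds the CTCF core of the first sequence above. The Mcf2l bin had 10 loops in M2[IL-4] and 0 in IFNG, with M0[CTR] at 1, M2p[pIL-4] at 4 and pIL-4 + IFNG at 5. The strongest IFNG-only loop nearby, chr8:13130001-13140000 to chr8:13210001-13220000, had 48 contacts (35.4-63.6) and lay downstream of F10. It was listed also in pIL-4 + IFNG (38 contacts) and had counterparts within 25 kb in M0[CTR] (36 contacts) and M2p[pIL-4] (49 contacts). In the megabase from 13 to 14 Mb of chromosome 8, 43 loops were of M2[IL-4] only and 3 of IFNG only.

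**Figure D3:**
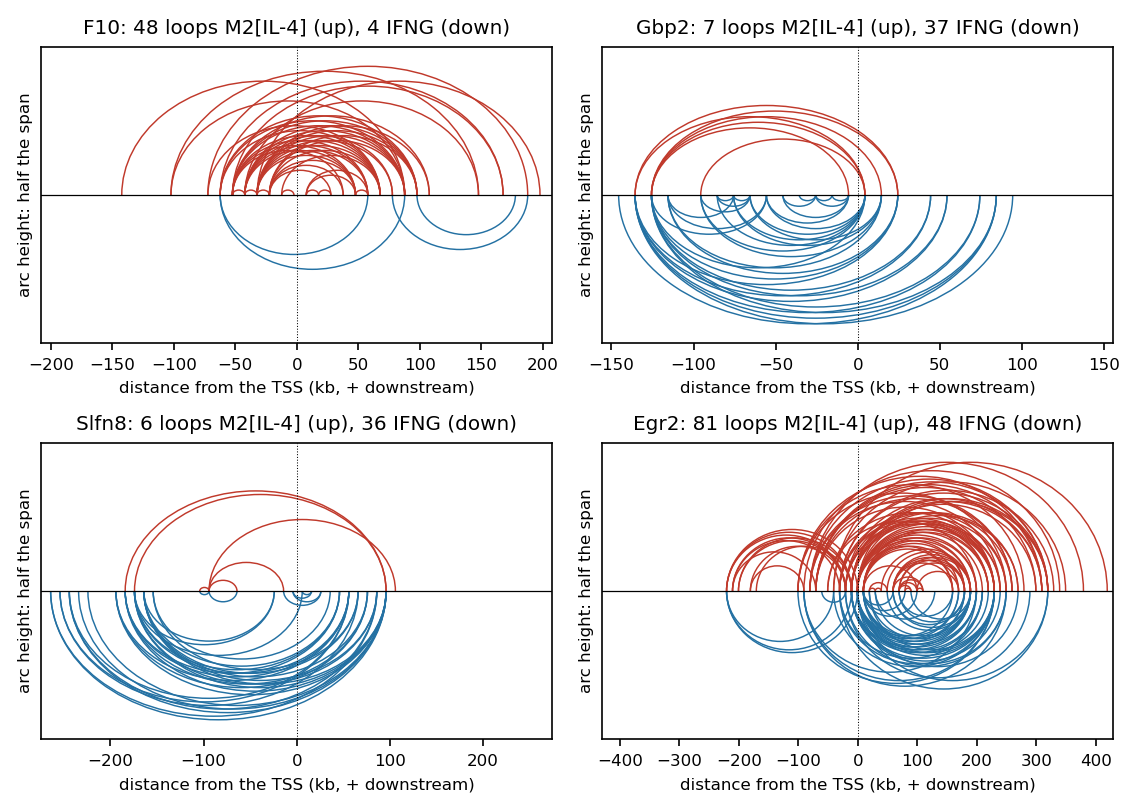
Loops with an anchor within 100 kb of the TSS of F10, Gbp2, Slfn8 and Egr2, drawn as arcs against distance from the TSS (kb, positive downstream), with M2[IL-4] loops above the line and IFNG loops below. Arc height is proportional to the span. F10 has 48 arcs above and 4 below, Gbp2 7 above and 37 below, Slfn8 6 above and 36 below, and Egr2 81 above and 48 below.

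The genes of IFNG reception and signalling had a median log2 ratio of -0.18. Jak2, a kinase of the receptor, had 20 loops in M2[IL-4] and 28 in IFNG (-0.55), and Stat2 had 37 and 54 (-0.61). With touching bin pairs merged these ratios were 0.03 and 0.17, so their direction is not settled. Ifngr1 had 21 and 15 (0.38), and Socs1, a feedback inhibitor of both pathways, had 109 and 93 (0.14).

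The interferon regulatory factors gave 0 of 6 genes past 2-fold and a median of -0.03. Irf1, the early IFNG-induced member, had 32, 23, 25, 33 and 26 loops in M2[IL-4], IFNG, M0[CTR], M2p[pIL-4] and pIL-4 + IFNG (0.38), IFNG being the lowest list. The ratio of Irf1 was -0.55 with touching bin pairs merged, so the direction turned with the way adjacent bin pairs were counted. The TSS bin of Irf1 had 4 loops in M2[IL-4], 0 in IFNG and 3 in untreated cells. The loop from the Irf1 TSS bin to the next bin had 133 contacts in M2[IL-4], with M0[CTR] at 130 and M2p[pIL-4] at 117, and was not listed in either IFNG-treated list. Within 25 kb, pIL-4 + IFNG had a counterpart with 168 contacts and IFNG had none. Irf8 had 44 in M2[IL-4] and 46 in IFNG (-0.14).

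Contacts at bin pairs called in both lists were compared next, with a two-sided exact binomial test against the share of all such contacts (49.2% from M2[IL-4]) and Benjamini-Hochberg adjustment. The test compares these 2 pooled libraries, not the conditions. Of 25712 bin pairs, 1 passed (0.00389%), and 585 had an unadjusted exact p under 0.05, which is 2.28%. That pair joined chr11:53750001-53760000, 10-20 kb before the Irf1 TSS, to chr11:53850001-53860000 at the TSS of Gm12216, and had 114 contacts in M2[IL-4] and 42 in IFNG, with M0[CTR] at 98, M2p[pIL-4] at 104 and pIL-4 + IFNG at 53 (log2 ratio 1.49, adjusted exact p = 4.2e-05). The 3 lists without IFNG lay above both lists with it. Summed by anchor, 4 of 21873 anchors passed (0.0183%). The same Irf1 anchor had 201 contacts in M2[IL-4] and 85 in IFNG (log2 1.29, interval 0.91-1.67, adjusted exact p = 1.36e-08), and the Gm12216 anchor had 333 and 198 (0.79, 0.54-1.06). The other 2 were partners on chromosome 18, the bin of the TSS of Lipg, an endothelial lipase gene, with 193 contacts in M2[IL-4] and 315 in IFNG (-0.66, -0.93 to -0.40, adjusted exact p = 0.0028), and a bin 150 kb away with 187 and 297 (-0.62). Lipg had 23 loops in M2[IL-4] and 41 in IFNG (-0.89).

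The guanylate-binding proteins, interferon-induced GTPases that act against intracellular pathogens, differed in the opposite direction to F7 and F10. Of 6 genes tested, 5 had at least 2-fold more loops in IFNG (3.63% over all genes tested) and 0 in M2[IL-4], with a median log2 ratio of -1.92. The 5 genes lie in a row on chromosome 3 and share loops, so they count as 1 locus. Gbp2 had 7 loops in M2[IL-4] and 37 in IFNG, with M0[CTR] at 11, M2p[pIL-4] at 10 and pIL-4 + IFNG at 53 (log2 ratio -2.32). Gbp5 had 15, 47, 14, 16 and 66 in the same order (-1.66), and Gbp3 10, 43, 12, 12 and 61 (-2.08). Both IFNG-treated lists lay above the other 3 at each of these genes, and the cells that had been primed with IL-4 had the most. Gbp6, in the second cluster on chromosome 5, had 9 loops in M2[IL-4] and 8 in IFNG (0.08), and Gbp4, Gbp8, Gbp9 and Gbp10 there had too few loops to be tested.

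Of the 37 IFNG loops at Gbp2 (chr3:142620602-142638008), 25 had no M2[IL-4] counterpart, whereas all 7 M2[IL-4] loops had an IFNG counterpart. Loops inside single genes were part of the difference. Within Gbp2b, chr3:142590001-142600000 and the next bin had 125 contacts in IFNG and 128 in pIL-4 + IFNG, and within Gbp7, chr3:142530001-142540000 and the next bin had 88 and 86. Loops between start sites were another part. The TSS bins of Gbp3 and Gbp2 were joined with 36 contacts in IFNG and 28 in pIL-4 + IFNG, and those of Gbp7 and Gbp2 with 34 and 38, and neither pair was called in M0[CTR], M2[IL-4] or M2p[pIL-4]. Within 25 kb, the pair of Gbp3 and Gbp2 and the loops inside Gbp2b and Gbp7 had no counterpart in those 3 lists, while the pair of Gbp7 and Gbp2 had counterparts with 26, 30 and 24 contacts. The loop between the TSS bins of Gbp5 and Gbp2 was in all 5 lists and had 45 contacts in M2[IL-4] and 33 in IFNG, with M0[CTR] at 47, M2p[pIL-4] at 47 and pIL-4 + IFNG at 31. The loop that spanned the cluster was therefore present in each list. Of the loops within it described here, those inside Gbp2b and Gbp7 and that of Gbp3 and Gbp2 were found only in the lists with IFNG. The pair of Gbp7 and Gbp2 had counterparts nearby in every list. Farther along the same locus Gtf2b, a general transcription factor gene, had 1, 11, 0, 1 and 21 loops. From 142 to 143 Mb of chromosome 3, 0 loops were of M2[IL-4] only and 26 of IFNG only.

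The immunity-related GTPases, another family of interferon-induced GTPases, had no gene past 2-fold among 6, with a median log2 ratio of 0.04 that lay between -0.68 and 0.63 under the alternatives tried. Irgm1 had 44 loops in M2[IL-4] and 41 in IFNG (0.02). Tgtp2 had 32 and 21 (0.51, and -0.48 with touching bin pairs merged), and Igtp and Irgm2, which share their loops, had 4 and 7 (-0.75).

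The IFNG-induced chemokines all had fewer loops in M2[IL-4] than in IFNG, 7 of 7 below 0, with a median log2 ratio of -0.51, and none reached 2-fold. Cxcl9 and Cxcl10 are neighbours, as are Ccl2, Ccl8 and Ccl12, and neighbours share loops, so the 7 genes are not independent. Cxcl16 went from -0.16 to 0.37 with touching bin pairs merged. Cxcl9, a T cell-attracting chemokine gene, had 12 loops in M2[IL-4] and 21 in IFNG, with M0[CTR] at 6, M2p[pIL-4] at 11 and pIL-4 + IFNG at 16 (-0.84), and Cxcl10, its neighbour, had 13, 21, 7, 11 and 16 (-0.73). The TSS bin of Cxcl10 had 0 loops in M2[IL-4] and 3 in IFNG. The loop from the TSS bin of Art3 to that of Cxcl10 had 172 contacts in IFNG (147.3-199.7) and 156 in pIL-4 + IFNG. That bin pair was in none of the other 3 lists, and within 25 kb M2p[pIL-4] had a counterpart with 45 contacts while M0[CTR] and M2[IL-4] had none. Ccl2, a monocyte-attracting chemokine gene, had 28 in M2[IL-4] and 38 in IFNG (-0.51), and the loop between the TSS bins of its neighbours Ccl7 and Ccl12 had 67 contacts in IFNG (51.9-85.1) and was not called in M2[IL-4]. Within 25 kb it had a counterpart in pIL-4 + IFNG alone (46 contacts).

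Antigen presentation genes lay slightly to the IFNG side, 16 of 18 below 0 with a median of -0.15, and none passed 2-fold. Most of them are in the MHC on chromosome 17 and share loops. Ciita, the master regulator of MHC class II genes, had 73, 77, 55, 62 and 79 loops in M2[IL-4], IFNG, M0[CTR], M2p[pIL-4] and pIL-4 + IFNG (-0.16). Cd274, encoding PD-L1, had 37, 51, 27, 49 and 62 (-0.53, and 0.27 with touching bin pairs merged), with M0[CTR] lowest. The strongest IFNG-only loop near Cd274, chr19:28970001-28980000 to chr19:29350001-29360000, had 25 contacts (16.2-36.9) and carries the facing CTCF cores shown above. It had counterparts within 25 kb in M0[CTR] (20 contacts), M2p[pIL-4] (20) and pIL-4 + IFNG (21).

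Of the 13 IFNG-induced effector genes tested, 4 had at least 2-fold more loops in IFNG (3.63% over all genes tested) and 0 in M2[IL-4], with a median of -0.41. The 4 were Isg15 and the neighbours Ifit1, Ifit2 and Ifit3, which share loops and count as 1 locus. Isg15, a ubiquitin-like protein gene, had 5 loops in M2[IL-4] and 12 in IFNG, with M0[CTR] at 12, M2p[pIL-4] at 16 and pIL-4 + IFNG at 14 (-1.19). Here the M2[IL-4] list was low and IFNG equalled M0[CTR], and Isg15 passed 2-fold in 9 of 13 settings. Ifit3, of a family that blocks viral RNA, had 23, 50, 33, 32 and 46 (-1.17), with M2[IL-4] below and IFNG above M0[CTR], and passed in 12 of 14 settings. Ifit1 and Ifit2 had ratios of -1.12 and -1.02. Nos2, the inducible nitric oxide synthase gene that competes with arginase for arginine, had 48, 60, 51, 56 and 72 loops (-0.40) and did not pass.

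**Figure D4:**
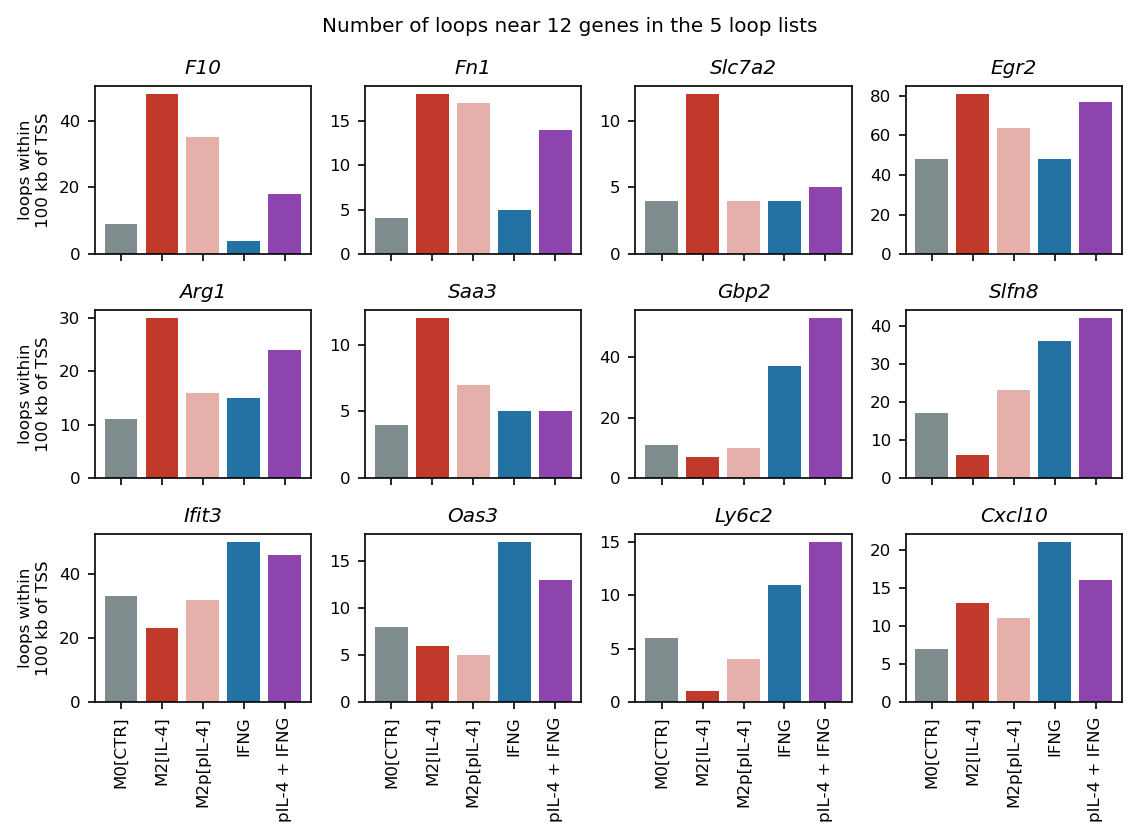
Number of loops with an anchor within 100 kb of the TSS of 12 genes in the 5 lists, 1 list per group with no replicates. F10, Fn1, Slc7a2, Egr2, Arg1 and Saa3 are highest in M2[IL-4], and Gbp2, Slfn8, Ly6c2, Ifit3, Oas3 and Cxcl10 are higher in both lists with IFNG than in the other 3.

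Whole families of neighbouring genes stood out among the called genes and were chosen after their values were seen, so their counts are a description. The share of all genes tested was 3.63% for calls in the IFNG direction and 3.27% for calls in the M2[IL-4] direction. The Schlafen genes, interferon-responsive regulators of immune cell growth, had at least 2-fold more loops in IFNG at all 8 genes tested, which lie in 1 cluster on chromosome 11 (median log2 ratio -2.04). Slfn8 had 6 loops in M2[IL-4] and 36 in IFNG, with M0[CTR] at 17, M2p[pIL-4] at 23 and pIL-4 + IFNG at 42 (-2.48), and Slfn5 had 15, 58, 30, 46 and 59 (-1.96). M2[IL-4] was the lowest list at both. Inside Slfn8, chr11:83000001-83010000 and the next bin had 170 contacts in IFNG and 162 in pIL-4 + IFNG, and the TSS bins of Slfn9 and Slfn8 were joined with 39 contacts in IFNG. Neither bin pair was in the M2[IL-4], M0[CTR] or M2p[pIL-4] list, and within 25 kb M0[CTR] had counterparts, with 113 and 84 contacts.

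The OAS genes, sensors of double-stranded RNA, gave 5 of 8 tested in the IFNG direction (3.63% over all genes tested, median -1.50). Oas3 had 6, 17, 8, 5 and 13 loops in M2[IL-4], IFNG, M0[CTR], M2p[pIL-4] and pIL-4 + IFNG (-1.44). Oasl2, in a separate cluster, had 32 loops in M2[IL-4] and 22 in IFNG (0.44). The PYHIN genes, a family of DNA sensors, gave 4 of 8, with Ifi207 at 2, 10, 2, 1 and 10 loops. The Ly6 genes, surface proteins of blood cells, gave 6 of 12, with Ly6c2, part of the Ly6C monocyte antigen, at 1, 11, 6, 4 and 15 loops. The 6 IFIT genes were all called for IFNG (median -1.15). In the other direction the 4 serum amyloid A genes, acute-phase proteins, were all called for M2[IL-4] (3.27% over all genes tested, median 1.20), with Saa3 at 12, 5, 4, 7 and 5 loops. These 4 genes also share 1 neighbourhood. The MS4A genes, a family of membrane proteins, had no called member among 19, and 18 of 19 were below 0 (median -0.36).

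The most extreme loci also included genes of no list. On the M2[IL-4] side, Cggbp1, a DNA-binding protein gene, had 31 loops in M2[IL-4] and 3 in IFNG, with M0[CTR] at 10, M2p[pIL-4] at 15 and pIL-4 + IFNG at 15 (2.93), with 8 to 17 contacts each in M2[IL-4] and a median span of 600 kb. Uvrag, an autophagy gene, had 25, 4, 14, 15 and 20 (2.31), and Fyn, a Src family kinase gene, had 17, 3, 10, 20 and 21 (2.10). IFNG was the lowest list at all 3. Without the added 1 the ratios of Cggbp1 and Fyn were 3.29 (counting interval 1.61-5.64) and 2.42 (0.63-4.83). On the IFNG side, Prdx6, an antioxidant enzyme gene, had 5, 29, 6, 10 and 31 (-2.40). The genes Tnfsf4 (21 in M2[IL-4], 57 in IFNG, -1.48) and Fasl (17 and 48, -1.52), encoding OX40 ligand and Fas ligand, lie in the same megabase and were chosen after their values were seen. Ihh, a hedgehog ligand gene, had 3, 18, 11, 17 and 24 (-2.32), with M2[IL-4] below and IFNG above M0[CTR]. Without the added 1 the ratio of Ihh was -2.67 (counting interval -5.07 to -0.89). Maf, a macrophage transcription factor gene, had 37, 65, 46, 46 and 66 (-0.88), and 51 loops of IFNG only against 21 of M2[IL-4] only lay in its megabase, 115 to 116 Mb of chromosome 8.

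Control lists put these values in context. Of 17 housekeeping genes tested, none passed 2-fold (median 0.09), with Gapdh at 47 loops in M2[IL-4] and 44 in IFNG (0.01). Of 18 macrophage lineage genes, none passed (median -0.04), and all 18 had loops in both lists, including Spi1, encoding PU.1, at 54 and 45 and Csf1r, the M-CSF receptor gene, at 30 and 39. Loops do not measure expression, so they check the cell type only in part. Of 13 tested markers of other cell types, 4 had at least 2-fold more loops in IFNG, a share above the 3.63% over all genes tested, and 0 in M2[IL-4] (median -0.23). They were the neutrophil gene Ly6g (1, 10, 5, 4 and 13 loops in M2[IL-4], IFNG, M0[CTR], M2p[pIL-4] and pIL-4 + IFNG), which lies beside Ly6c2, the T cell genes Cd8a (3, 10, 9, 6 and 6) and Lck (9, 19, 17, 17 and 27), and the erythroid gene Gata1 (3, 7, 5, 7 and 8). IFNG was close to M0[CTR] at Cd8a, Lck and Gata1, and M2[IL-4] was the lowest list at all 4. Col3a1, a fibroblast marker, had no loop in any list, and the whole list had 280 loops in M2[IL-4] and 331 in IFNG. The part of other cells in the IFNG-side differences was not tested.

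Loops with both anchors on 1 gene were counted separately, a view chosen after the Gbp loops were seen. Summed over genes, M2[IL-4] had 8311 such loops and IFNG 6902, and a loop inside overlapping genes was counted for each of them. Of 80 genes of the IFNG-side lists, 21 had such a loop in either list, 10 only in IFNG and 3 only in M2[IL-4]. Over all genes, 3205 had such a loop in either list, 590 (18.4%) only in IFNG and 951 (29.7%) only in M2[IL-4]. Gbp5, Gbp7 and Gbp2b had led to this view and are among the 10. The 10 included Ifi47, Irgm2, Nos2, H2-Ab1, Ifit2 and Nlrc5, an MHC class I regulator, each with only 1 such loop in IFNG. Of these, Ifi47, Irgm2, Ifit2 and Nlrc5 had 1, 2, 2 and 3 in pIL-4 + IFNG, and Nos2 and H2-Ab1 had 0. Ifi47 had 1 in M0[CTR] as well, and the others named had none there. The 3 were Fcgr4, Irf3 and Irf8, each with 1 loop in M2[IL-4]. These lists had 16 loops inside genes in M2[IL-4], 31 in IFNG and 14 in untreated cells. The 46 genes of the IL-4-side lists had 12 in each list, with F7, F10 and Cdh1 having them only in M2[IL-4] and Clec10a, Pparg, Il4ra and Jak3 only in IFNG. Each of these named genes had 1 such loop. The 54 control genes had 19 in each list.

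Promoter letters were then set beside the loop differences. Of the 21728 genes, 16432 had a RefSeq promoter of 300 bases (250 before the start and 50 after). The interferon element GAAANNGAAA was found in 28 of 335 promoters of IFNG-higher genes (8.36%, 5.85-11.8), in 13 of 297 of M2[IL-4]-higher genes (4.38%, 2.58-7.34), in 287 of 9125 of all genes tested (3.15%, 2.81-3.52) and in 572 of all 16432 (3.48%). The IFNG-higher genes with the element included Gbp2, Gbp2b, Gbp3, Gbp5, Gbp7, Ifit1, Ifit3, Isg15, Slfn5, Slfn8, Slfn9 and Oas3. Since neighbours share both loops and family origin, the share was also taken over a single gene of each locus, the one with the most extreme loop ratio. It was 7 of 133 (5.26%, 2.57-10.5) for IFNG and 3 of 115 (2.61%) for M2[IL-4], where the intervals hold the share of all genes tested. The STAT element TTCNNNGAA was found in 8.06% of IFNG-higher, 6.40% of M2[IL-4]-higher and 6.98% of all promoters tested, and TTCNNNNGAA in 7.46%, 6.06% and 5.45%. By list, the interferon element was in 5 of 5 guanylate-binding protein promoters and 5 of 6 immunity-related GTPase promoters. The former 5 were those of the called chromosome 3 genes. The chromosome 5 members, with Gbp6 among them, had no promoter sequence to search. The immunity-related GTPase genes did not have more loops in IFNG by 2-fold. Of 17 alternative activation promoters, none held the interferon element and 6 held TTCNNNNGAA, those of Ccl17, Cd36, Itgax, Pdcd1lg2, Retnla and Tfec.

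**Figure D5:**
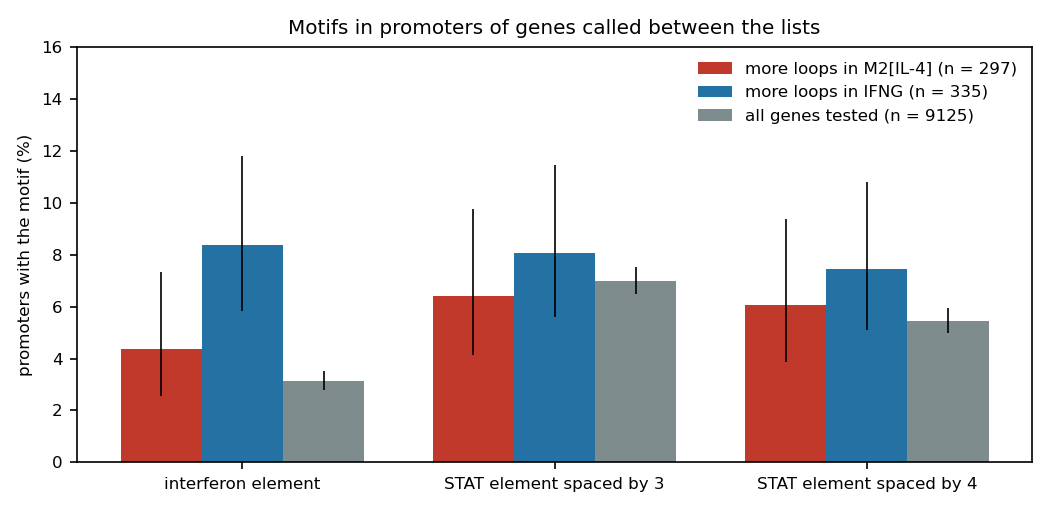
Share of 300-base promoters (%) holding the interferon element or the STAT elements spaced by 3 or 4 bases, for genes with at least 2-fold more loops in M2[IL-4] (n = 297), in IFNG (n = 335) and for all genes tested (n = 9125). Lines are 95% Wilson intervals for counting error, and neighbouring genes are not independent. The interferon element share is 8.36% for IFNG-higher genes and 3.15% for all genes tested.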

How the data were processed

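Hi-C libraries of 5 groups of BMDMs (10 samples, 2 replicates each) had been merged by the authors into 1 loop list per group before deposit. The deposited lists give pairs of 10 kb bins and a column of whole-number contacts, read here as counts of reads per bin pair per the file headers and values; they were used without normalization. The submitters' processing notes name FastQC, Bowtie2, HiC-Pro, Juicer, HOMER and mm10. The study's methods describe HiCCUPS loop calling on Knight-Ruiz balanced matrices with standard parameters at 25 kb, whereas the deposited lists have 10 kb bins. Which caller and threshold made the 10 kb lists is not given in the sources used here, and a loop near the threshold can be in 1 list and missing from another. Totals were 2416249 contacts for M2[IL-4] and 2245331 for IFNG (median 32 per loop in both), and Poisson, exact and Wilson 95% intervals cover counting error only. All bins lay inside the GRCm38 chromosomes.

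Loops were matched when both anchors were at most 2 bins apart (25 kb), and strength is contacts over the median at the same span, taken over at least 30 loops. Loops within 100 kb of the TSS (GENCODE M21, 21728 gene symbols, repeated symbols kept once) were scaled by list length, 1 was added, and genes with at least 10 loops in both lists together and a 2-fold difference were called. Neighbouring called genes were chained within 200 kb into loci. Named genes were a fixed set of IL-4 and IFNG genes, the 12 most extreme loci in each direction, and the 2 highest and 2 lowest tested members of each of 13 gene lists (3 of 180 entries were not found in the annotation); named loops were the 5 strongest for their span of 1 list only, the strongest near each fixed gene, and those past an adjusted p of 0.05. Other genes, families, loops inside genes and single bins were picked after their values were seen. The members, lists and rules were chosen with earlier results of these data known. The scripts ran in Python 3.11.15 with scipy 1.17.1 and statsmodels 0.14.6 for tests and intervals, pandas 2.3.3 and numpy 2.4.6 for tables and matplotlib 3.10.9 for plots, and the contact test was checked on simulated data. The alternatives tried were other matching distances, windows, added numbers, filters, scalings, merged bin pairs, equal list lengths and a minimum span. The results of some single genes are not reported here.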

Additional observations from a re-analysis of the deposited data

How the results depend on the processing

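No paired analysis was possible because the replicates of a group had been merged into 1 list, and leaving out a replicate could not be run for the same reason. With identical bins required, 44.1% of M2[IL-4] and 46.7% of IFNG loops were shared, leaving 32548 and 29300 loops of 1 list only, and within 50 kb it was 93.6% and 94.3%, leaving 3714 and 3135. Merging touching bin pairs gave 59.0% and 62.1%, equal list lengths 86.6% and 87.1%, and a span of at least 20 kb 86.4% of M2[IL-4]. The genes called for M2[IL-4] and IFNG were 135 and 141 with 5 added to each number, 849 and 1697 with no filter on low loop numbers, 222 and 205 with at least 20 loops, and 226 and 229 with touching bin pairs merged, when 6 rather than 10 genes of the IFNG lists were called. Of the 226 and 229, 76 and 88 were among the 393 and 437 reported. A window of 50 kb gave 380 and 326, of which 190 and 193 were among those reported, so the order of the counts turned, and a window of 200 kb gave 355 and 477, of which 187 and 230 were. The share of calls in the M2[IL-4] direction was 47.3%, 33.3% with no filter and 63.7% when scaled by contacts, a scaling that moved the median of all genes to 0.11. Contact tests with the share set by list lengths called 2 bin pairs and 29 anchors. The interferon element was in 5.26% of the IFNG loci by their gene of most extreme loop ratio. Of 1079 values of named genes under alternatives, 1053 kept their side of the threshold, 16 lost it and 10 gained it. A named gene had a value only in settings where it passed the filter on loop numbers. None of the 33 named genes that were called changed sign in those settings. The signs of the other called genes were not checked. Of the 88 named genes, 29, all below 2-fold, changed sign under at least 1 alternative, 23 of them with touching bin pairs merged. Among these, Irf1 went from 0.38 to -0.55, Stat2 from -0.61 to 0.17, Cd274 from -0.53 to 0.27 and Il4ra from -0.48 to 0.12. F7, F10, Gbp2, Gbp3, Gbp5, Cggbp1, Uvrag and Prdx6 passed 2-fold in every setting run, while Arg1 passed in 0 of 14 (0.42 to 1.00), Isg15 in 9 of 13, Ifit3 in 12 of 14 and Slfn8 in 13 of 14. List medians ranged from 0.12 to 0.55 for the IL-4 response factors, -2.08 to -1.15 for guanylate-binding proteins, -0.77 to -0.38 for chemokines and -0.68 to 0.63 for immunity-related GTPases, whose direction is therefore not settled. The medians of the IL-4 receptor genes (-0.38 to 0.07), IFNG receptor genes (-0.21 to 0.03), interferon regulatory factors (-0.10 to 0.09) and macrophage lineage genes (-0.10 to 0.09) also fell on both sides of 0.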

Other observations

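Some single bins were anchors of many loops in 1 list and of none in the other. There were 19 bins with at least 8 loops in 1 list and 0 in the other, and they carried 177 M2[IL-4] and 30 IFNG loops. A bin with 0 loops had none called, and whether such a bin had been left out at matrix balancing is not given in the sources used here, so 0 cannot be read as no contact. The bin chr10:96210001-96220000 had 24 loops in M2[IL-4] and 0 in IFNG, with M0[CTR] at 0, M2p[pIL-4] at 25 and pIL-4 + IFNG at 23. The bin chr7:145230001-145240000 in Tpcn2, a lysosomal ion channel gene, had 19, 0, 0, 24 and 18 in the same order, and chr11:116450001-116460000 in Qrich2 had 15, 0, 0, 0 and 0. The bin chr4:128970001-128980000 had 0, 12, 0, 8 and 11. With the loops of these 19 bins left out, an alternative chosen after seeing the data, 391 genes were called for M2[IL-4] and 435 for IFNG.

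Some of the strongest loops for their span found in 1 of the 2 lists lay at genes not yet described. Afg1l and Ostm1 on chromosome 10 were joined with 43 contacts in M2[IL-4] and 30 in M2p[pIL-4] and had no counterpart within 25 kb in IFNG, with counterparts in M0[CTR] (26 contacts) and pIL-4 + IFNG (28). The TSS bins of C3ar1, a complement receptor gene, and Clec4d, a C-type lectin gene, were joined with 33 contacts in M2[IL-4], against 22 for M0[CTR], 30 for M2p[pIL-4] and 19 for pIL-4 + IFNG, and were not called in IFNG. Inside Nav1 on chromosome 1, a loop had 52 contacts in M0[CTR], 75 in IFNG and 61 in pIL-4 + IFNG and had a counterpart within 25 kb in M2p[pIL-4] (51 contacts) but not in M2[IL-4].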
